A study of Mus musculus with 9 samples.

Results

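Proteasome genes were followed in mouse embryonic fibroblasts of the C57BL/6 strain that had been given p21, p16 or an empty vector by lentivirus. They were taken as every gene of the count table whose symbol is Psm followed by a letter from a to g and a digit, which gave 50 of 24062 genes. Of these, 49 had enough reads to be tested. The other, Psmb11, the beta subunit of the thymus, had 1 to 5 reads per library. By role the genes are 31 structural and catalytic subunits of the 20S core and the 19S cap, 3 immunoproteasome catalytic subunits, 2 core subunits restricted to testis or thymus, 7 assembly chaperones, 4 activator genes, 1 inhibitor, and 2 genes that share the name only. The last 2 are Psmc3ip, a factor of meiotic recombination that is no proteasome subunit, and Psme2b, a near-copy of Psme2.

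The proteasome degrades proteins that carry ubiquitin. Its 20S core is a barrel of alpha and beta rings, and the beta subunits Psmb5, Psmb6 and Psmb7 hold the proteolytic sites. The 19S cap binds and unfolds substrates with a ring of ATPases, the Psmc subunits, and a set of Psmd subunits. PA28 and PA200 are caps that open the core without the 19S, and chaperones build core and cap. In cells that respond to interferon gamma, and in many blood cells, the catalytic subunits Psmb8, Psmb9 and Psmb10 take the place of Psmb5, Psmb6 and Psmb7 in new cores, the immunoproteasome. When proteasome activity falls short, the transcription factor NRF1, the product of Nfe2l1, is known to raise the core and cap genes together.

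RNA was taken 10 days after lentivirus from 3 groups of 3 libraries each: cells overexpressing p21 (gene Cdkn1a), cells overexpressing p16 (gene Cdkn2a), and control cells with the empty vector (EV). Both proteins inhibit cyclin-dependent kinases and stop the cell cycle. The cell status field of the labels reads senescent for p21 and also for control libraries, and the p16 libraries have no such field. The labels do not say which promoter drives the transgenes, and they do not tie replicates to embryos or cultures. The p-values therefore rest on the spread between these libraries, which may be technical. Whether the p16 libraries were prepared apart from the others was not tested, and a difference of that kind cannot be told apart from p16 in its comparisons.

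Library totals were 56864342 to 76054820 reads assigned to genes. Levels are given as CPM, the counts per 1000000 reads after scaling between libraries, and comparisons used edgeR's quasi-likelihood test with Benjamini-Hochberg adjustment over all 14572 genes tested, with an adjusted p under 0.05 as the call. Cdkn1a averaged 1130 ± 76.4 CPM in p21 cells, 419.5 ± 22.3 in p16 cells and 366.2 ± 43.6 in control cells, and Cdkn2a averaged 95.6 ± 16.7 CPM in p21 cells, 1017 ± 64.6 in p16 cells and 63.1 ± 5.03 in control cells (SD, n = 3). Of 8 proliferation markers, 8 fell in p21 cells and 7 in p16 cells. All 13 fibroblast markers had reads in every library, and none of 12 lymphocyte markers had enough reads for the test. Of 15 macrophage and leukocyte markers tested, 10 rose in p21 cells and 0 passed the test in p16 cells. Of all tested genes, 19.3% were called higher and 20.7% lower in p21 minus control, and 7.22% were called in p16 minus control. Control replicate 1 and the replicate 3 libraries of all 3 groups stood apart in the proteasome genes, as described below.

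To show where 2 sets of these genes begin, promoter sequence is given for 3 genes that were lower together in p21 cells and for 2 catalytic subunits that were not called. The windows run from 250 bases before the RefSeq transcription start to 30 bases after it, on the gene's own strand, from GRCm38.p6. A window was found for 42 of the 50 genes. Capitals mark a motif that was searched for on both strands. The core of the antioxidant response element, TGACNNNGC, which NRF1 and NRF2 recognise, lies at −47 in Psmb5 and at −9 in Psmb6, counted from 0 at the start to the motif's first base in the window. The core of the interferon-stimulated response element, taken as GAAA, any 2 bases and GAAA again, lies at 9 in Psme1 and at 15 in Psmg4, and Psmg1 holds none of the 5 motifs. The windows are chr14:54617966-54618245 for Psmb5 (minus strand), chr11:70525107-70525386 for Psmb6 (plus strand), chr14:55578244-55578523 for Psme1 (plus strand), chr16:95990931-95991210 for Psmg1 (minus strand) and chr13:34162714-34162993 for Psmg4 (plus strand).
Psmb5: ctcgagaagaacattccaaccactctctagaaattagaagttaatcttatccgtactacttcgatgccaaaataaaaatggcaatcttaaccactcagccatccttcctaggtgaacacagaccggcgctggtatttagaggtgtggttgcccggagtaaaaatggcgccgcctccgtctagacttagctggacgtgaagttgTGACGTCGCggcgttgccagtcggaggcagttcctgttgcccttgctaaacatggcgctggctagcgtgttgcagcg
Psmb6: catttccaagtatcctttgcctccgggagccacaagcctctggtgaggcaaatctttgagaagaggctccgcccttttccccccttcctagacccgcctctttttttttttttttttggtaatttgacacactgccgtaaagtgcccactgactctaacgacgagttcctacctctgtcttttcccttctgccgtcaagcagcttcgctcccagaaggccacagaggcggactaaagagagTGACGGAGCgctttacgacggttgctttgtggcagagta
Psme1: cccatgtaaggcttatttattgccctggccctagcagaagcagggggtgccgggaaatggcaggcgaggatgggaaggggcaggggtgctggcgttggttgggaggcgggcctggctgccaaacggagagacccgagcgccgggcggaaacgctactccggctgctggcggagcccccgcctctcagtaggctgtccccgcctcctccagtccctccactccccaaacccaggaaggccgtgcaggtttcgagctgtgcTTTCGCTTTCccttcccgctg
Psmg1: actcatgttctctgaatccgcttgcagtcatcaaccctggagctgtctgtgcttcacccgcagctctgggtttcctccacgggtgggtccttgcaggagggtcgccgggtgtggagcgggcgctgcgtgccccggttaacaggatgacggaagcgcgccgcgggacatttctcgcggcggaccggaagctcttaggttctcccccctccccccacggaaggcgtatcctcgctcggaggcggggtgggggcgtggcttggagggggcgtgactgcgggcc
Psmg4: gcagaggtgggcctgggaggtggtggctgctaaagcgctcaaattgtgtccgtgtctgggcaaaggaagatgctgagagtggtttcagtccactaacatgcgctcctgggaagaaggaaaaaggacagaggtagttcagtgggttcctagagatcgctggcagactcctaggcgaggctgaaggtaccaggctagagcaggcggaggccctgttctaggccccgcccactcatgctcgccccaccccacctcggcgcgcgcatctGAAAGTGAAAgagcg

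The 42 genes have 45 windows, since some have several starts, and shares are given per window. TGACNNNGC was present in 6 windows (13.3%), against 11.5% of 32851 windows of all genes. The interferon-stimulated response element core was present in 5 windows (11.1%), against 3.28% of all windows. Besides Psme1 and Psmg4 these belong to Psmb3, Psmd4 and Psmd9. Their log2 fold changes in p21 minus control were 0.22, 0.0096 and −0.12, and none was called in the fit of all libraries without a block. CCAAT, the CCAAT box, was present in 15 windows (33.3%), against 36.1% of all windows. TTTNGCGC, an E2F site core, was present in 1 window, that of Psmb9 (2.22%), against 1.28%, and TGACGTCA, the cAMP response element, in 0 windows, against 1.74%. TGACNNNGC and TGACGTCA begin with the same letters but cannot match at the same place, and a match is a description of letters only.

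Summed levels of the core and cap genes differed between groups by less than the spread between control libraries. The 31 structural and catalytic subunits summed to 4659 ± 195 CPM in p21 cells, 4486 ± 222 CPM in p16 cells and 4574 ± 435 CPM in control cells (SD, n = 3). The same scaled sums written as percentages were 0.466 ± 0.0195 in p21 cells, 0.449 ± 0.0222 in p16 cells and 0.457 ± 0.0435 in control cells. They include the scaling between libraries and are not shares of the raw reads. By library the sums were 4701, 4829 and 4447 CPM in p21 cells, 4651, 4574 and 4233 CPM in p16 cells, and 5023, 4546 and 4155 CPM in control cells. The groups overlapped, and the control libraries covered a wider range than the others.

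None of the 31 subunits was called in any comparison by edgeR's quasi-likelihood test without a block. With the replicate number as a block, Psmb3 was called higher in p21 minus p16, against 24% of all genes in that fit. The block also called Psmb3 and Psmd8 in p21 minus control, against 49.7% of all genes. Same-numbered libraries of p21 and control were not all correlated above 0.1. Without the block, at an unadjusted p under 0.05, there was 1 in p21 minus control (Psmb3), 1 in p16 minus control (Psmb6) and 0 in p21 minus p16. DESeq2 called 0 in each. The share of all tested genes called was 39.9% in p21 minus control, 7.22% in p16 minus control and 12.8% in p21 minus p16. Among the 2283 genes whose mean level was at least the 87.1 CPM of the least abundant of these subunits, it was 51% in p21 minus control, 11.5% in p16 minus control and 17% in p21 minus p16. The median log2 fold change of the 31 subunits was 0.0077 in p21 minus control, with a range of −0.10 (Psmb6) to 0.22 (Psmb3), beside a median of −0.011 over all genes. In p16 minus control it was −0.035, with a range of −0.13 (Psmb6) to 0.049 (Psmd8), beside −0.0097 over all genes. The median size of the log2 fold change, sign aside, was 0.033 for the subunits in p21 minus control and 0.25 for all genes. In p16 minus control it was 0.039 for the subunits and 0.13 for all genes. These sizes over all genes include genes of low level and were not restricted to the 2283 genes above.

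A missed call does not show equal levels, so the intervals bound what the data allow. The 95% intervals of the 31 log2 fold changes lay within −0.28 and 0.43 in p21 minus control, within −0.30 and 0.24 in p16 minus control and within −0.19 and 0.41 in p21 minus p16. The p21 libraries were above the p16 libraries in fitted mean for 30 of 31 subunits, by a median log2 difference of 0.041. The groups did not overlap in 3 of 31, Psma2, Psmb1 and Psmb3, against 36% of all genes tested.

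Psma3, the alpha ring gene with the highest CPM averaged over the 9 libraries, had 155, 160 and 151 CPM in p21 cells, 158, 158 and 147 CPM in p16 cells, and 156, 151 and 145 CPM in control cells. The lowest library in each group was replicate 3, and the groups overlapped. Psmb1, the structural beta gene with the highest CPM averaged over the 9 libraries and the lowest of the core per exon length, had 146, 151 and 145 CPM in p21 cells, 143, 138 and 136 CPM in p16 cells, and 146, 139 and 131 CPM in control cells. All p21 libraries were above all p16 libraries, with a log2 fold change of 0.09 and an adjusted p of 0.292, while control libraries overlapped with both groups. Psmb3, another structural beta gene, had 121, 125 and 109 CPM in p21 cells, 108, 107 and 95.1 CPM in p16 cells, and 115, 100.02 and 89.1 CPM in control cells. Its log2 fold change of 0.22 in p21 minus control did not pass edgeR's test without a block (adjusted p = 0.0913). Control replicate 1 lay among the p21 libraries. Psmb3 shares 55.8% of its exonic runs of 50 bases with another gene, and its count is uncertain for that reason. The same holds for Psma5, at 54.5%.

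The 3 catalytic subunits are the targets of the proteasome inhibitors used as drugs, chiefly Psmb5, the chymotrypsin-like site. Psmb5 had 92.5, 97.3 and 82.9 CPM in p21 cells, 87.9, 86.9 and 78.1 CPM in p16 cells, and 94.7, 89.96 and 79.5 CPM in control cells. Psmb6, the caspase-like site, had 110, 110 and 106 CPM in p21 cells, 109, 108 and 102 CPM in p16 cells, and 121, 118 and 109 CPM in control cells. All p16 libraries were below all control libraries for Psmb6, with a log2 fold change of −0.13 ± 0.053 (SE) and an adjusted p of 0.173. Psmb7, the trypsin-like site, had 143, 143 and 131 CPM in p21 cells, 138, 136 and 129 CPM in p16 cells, and 147, 129 and 121 CPM in control cells. Levels of Psmb5 and Psmb7 overlapped between all 3 groups. Psmb5 shares 54.1% of its runs of 50 bases with another gene, and 34.9% of the exonic bases of Psmb7 lie within Nek6, so both counts are uncertain.

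None of the 17 subunits of the 19S cap was called. Psmc3, an ATPase of the base, had 200.4, 208 and 185 CPM in p21 cells, 199, 196 and 181 CPM in p16 cells, and 217, 193 and 179 CPM in control cells. Psmd2, a large scaffold subunit of the base, had 435, 457 and 414 CPM in p21 cells, 444, 430.2 and 396 CPM in p16 cells, and 494, 431 and 395 CPM in control cells. Psmd2 shares 25.6% of its runs of 50 bases with other genes, so its count is in part uncertain. Psmd8, a lid subunit, had 457, 466 and 416 CPM in p21 cells, 421, 418 and 377 CPM in p16 cells, and 429.5, 407 and 339 CPM in control cells. In each of the 3 genes the p21 and control libraries overlapped, and replicate 3 was the lowest library of its group. The log2 fold change of Psmd8 in p21 minus control was 0.19, with an adjusted p of 0.118. With control replicate 1 left out, 4 of the 31 subunits were called higher in p21 cells (Psma2, Psmb2, Psmb3 and Psmd8), against 39.1% of all genes called. When any other single p21 or control library was left out, 0 of the 31 were called, against 28.6% to 36.5% of all genes.

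**Figure D1:**
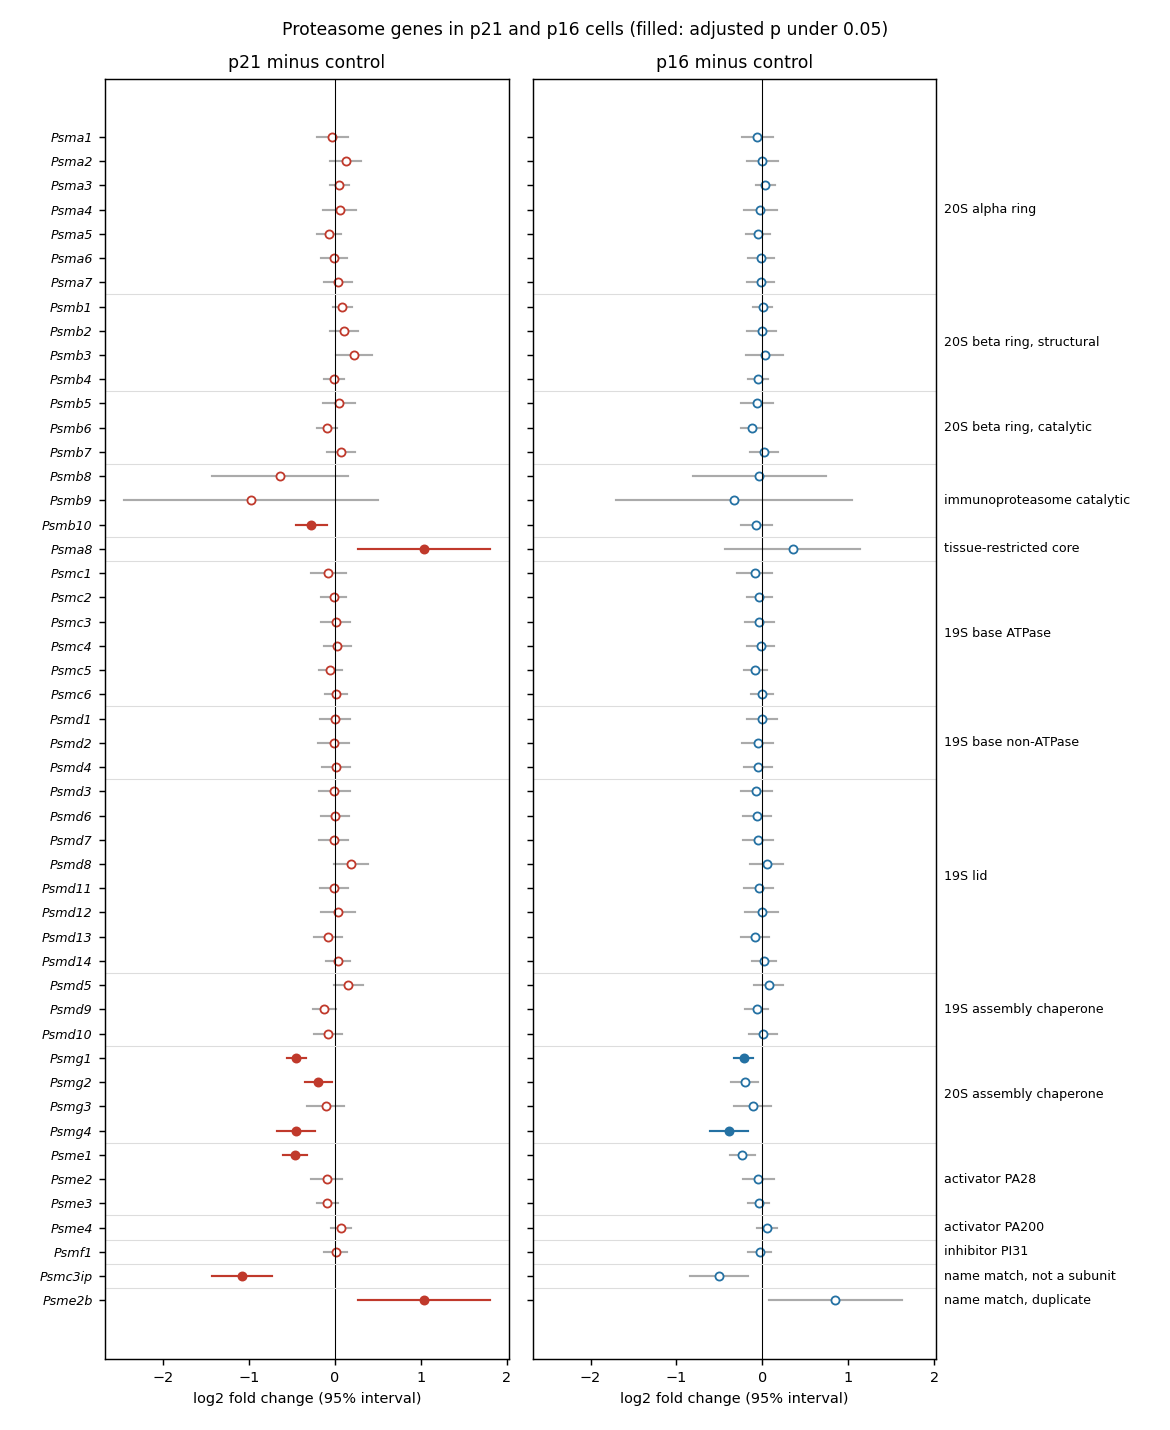
Log2 fold change with its 95% interval (horizontal axis) for the 49 tested genes, grouped by role, in p21 minus control (left) and p16 minus control (right), with filled points for an adjusted p under 0.05. The core and cap subunits sit close to 0 in both panels, and the called genes are Psmg1, Psmg2, Psmg4, Psme1, Psmb10, Psmc3ip, Psma8 and Psme2b on the left and Psmg1 and Psmg4 on the right.

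In several libraries most or all of the subunits deviated in the same direction. Directions were mixed in control replicate 2, with 12 of 31 above their own mean, and in p16 replicate 2, with 14 of 31. Replicate 3 was the lowest of its group for 28 of 31 subunits in p21 cells, 31 of 31 in p16 cells and 31 of 31 in control cells, where replicate 1 was the highest for 31 of 31. The median log2 deviation from each gene's mean was 0.031, 0.070 and −0.041 in p21 replicates 1, 2 and 3, 0.029, −0.0042 and −0.11 in p16 replicates 1, 2 and 3, and 0.14, −0.016 and −0.12 in control replicates 1, 2 and 3. The gap between the highest and the lowest library was at the median 8.74% in p21 cells, 8.89% in p16 cells and 20.4% in control cells. The median over all genes tested lay between −0.0078 and 0.0095 in the 9 libraries.

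Other large complexes were set beside these subunits. For the 9 tested genes of the COP9 signalosome, a relative of the 19S lid, the median deviation was 0.089 in control replicate 1 and −0.051 in control replicate 3. For the 8 genes of the CCT chaperonin, which folds actin and tubulin, it was 0.21 in control replicate 1 and −0.078 in control replicate 3. In p21 minus control 0 of 9 COP9 genes were called, and 2 of 8 CCT genes (25.0%, against 39.9% of all genes), Tcp1 and Cct4, fell, though both calls were lost without control replicate 1 or 2 or p21 replicate 1 or 3, and that of Tcp1 also without p21 replicate 2. Total reads were highest in control replicate 1 and lowest in p21 replicate 3, and the part of depth in these deviations was not tested.

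**Figure D2:**
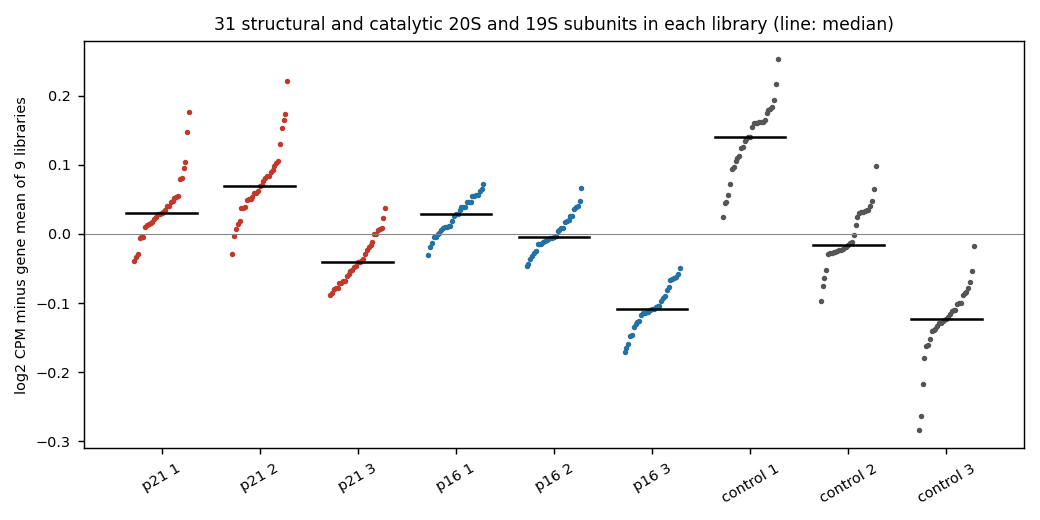
Each point is one of the 31 structural and catalytic subunits in one library, as log2 CPM minus that gene's mean over the 9 libraries, and the black line is the median. Control replicate 1 has its median at 0.14 and control replicate 3 at −0.12, a wider spread than in p21 or p16 cells.

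Levels were also compared between genes, per exon length. In CPM per kb of exon, the 14 constitutive core genes ran from 43.0 (Psmb1) to 154 (Psmb3) in p21 cells, 40.6 (Psmb1) to 135 (Psmb3) in p16 cells, and 40.5 (Psmb1) to 145 (Psmb6) in control cells. Medians of the core genes were 104 CPM per kb in p21 cells, 96.1 in p16 cells and 98.6 in control cells. The 17 cap genes ran from 35.5 to 203 CPM per kb in p21 cells, 34.4 to 184 in p16 cells and 34.6 to 178 in control cells, with Psmd12 lowest and Psmd8 highest in each. In every group 27 of the 31 lay within 2-fold of their median. Activators and core chaperones were set on the same scale. In control cells Psme3 stood at 49.7, Psme2 at 39.8, Psme1 at 30.4, Psmg1 at 21.6 and the PA200 gene Psme4 at 21.3 CPM per kb, so that Psme3 lay above the core genes Psma2 (43.1) and Psmb1 (40.5). Exon lengths are those of all annotated exons, so a gene with a long unused exon reads low.

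**Figure D3:**
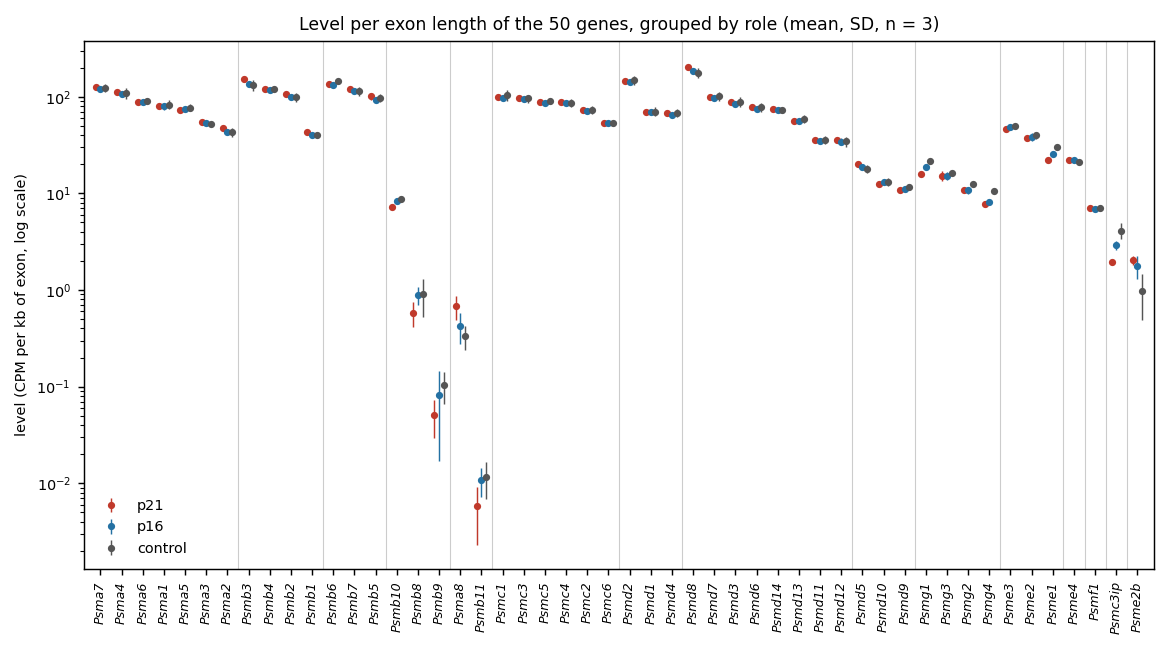
Mean level with SD of each of the 50 genes in CPM per kb of exon (log axis), by role, for p21, p16 and control cells (n = 3 libraries each). The core and cap subunits lie between 34.4 and 203 in all groups, while Psmb8, Psmb9, Psma8 and Psmb11 lie below 1 in all groups.

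Of the chaperones that build the core, some were called lower in both overexpressing groups. Psmg1 and Psmg2 form a pair that starts the alpha ring, Psmg3 and Psmg4 form a second pair, and 3 of these 4 genes were called lower in p21 cells and 2 of 4 in p16 cells, against 20.7% and 3.65% of all genes called lower. The 4 genes summed to 48.4 ± 1.13 CPM in p21 cells, 51.4 ± 1.71 CPM in p16 cells and 59.1 ± 0.93 CPM in control cells (SD, n = 3). Their median log2 fold change was −0.32 in p21 minus control and −0.21 in p16 minus control.

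Psmg1 had 17.0, 16.1 and 16.5 CPM in p21 cells, 20.1, 19.1 and 19.04 CPM in p16 cells, and 22.6, 22.1 and 22.9 CPM in control cells. The 3 groups did not overlap, with control cells highest and p21 cells lowest. Its log2 fold change by edgeR's quasi-likelihood test was −0.45 ± 0.050 (SE, adjusted p = 0.000151) in p21 minus control, −0.22 ± 0.050 (adjusted p = 0.0332) in p16 minus control and −0.23 ± 0.051 (adjusted p = 0.0181) in p21 minus p16. None of its runs of 50 bases occurs in another gene.

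Psmg4 had 4.65, 4.02 and 4.29 CPM in p21 cells, 4.34, 4.61 and 4.59 CPM in p16 cells, and 5.62, 5.80 and 6.33 CPM in control cells. Both overexpressing groups lay below control cells in every library and overlapped with each other. The log2 fold change was −0.45 ± 0.098 (SE, adjusted p = 0.00524, edgeR) in p21 minus control, −0.39 ± 0.098 (adjusted p = 0.0436) in p16 minus control and −0.06 ± 0.099 in p21 minus p16. Psmg2 had 14.2, 13.7 and 14.5 CPM in p21 cells, 15.4, 13.5 and 13.3 CPM in p16 cells, and 15.5, 16.5 and 16.6 CPM in control cells. The log2 fold change of Psmg2 was −0.20 in p21 minus control, at an adjusted p of 0.04995 by edgeR, and −0.21 in p16 minus control, at an adjusted p of 0.109. Psmg3 had a log2 fold change of −0.11 in both comparisons, with an adjusted p of 0.404 in p21 minus control and 0.537 in p16 minus control.

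The calls of Psmg1 and Psmg4 in p21 minus control held in 14 of 14 alternative fits, and that of Psmg2 in 5 of 14. Without control replicate 2 or 3, or without any of the 3 p21 replicates, Psmg2 was not called. In p16 minus control neither Psmg1 nor Psmg4 was called when any single p16 or control library was left out, with log2 fold changes of −0.24 to −0.20 for Psmg1 and −0.42 to −0.33 for Psmg4. Calls over all genes also fell in those fits, to between 1.5% and 5.9%, against 7.22% with all 9 libraries.

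None of the 3 chaperones of the cap was called. Psmd5, which escorts ATPases of the base, had 87.1, 90.2 and 85.9 CPM in p21 cells, 85.9, 87.4 and 76.2 CPM in p16 cells, and 86.4, 78.7 and 71.7 CPM in control cells. It was not called (adjusted p = 0.134 in p21 minus control), and neither were Psmd9 and Psmd10, at log2 fold changes of −0.12 and −0.08. Pomp, the maturation factor of the core, lies outside the name pattern. It averaged 103 ± 3.05 CPM in p21 cells, 94.998 ± 4.05 in p16 cells and 90.9 ± 12.6 in control cells, with an adjusted p of 0.12 in p21 minus control. Pomp was picked out after its values were seen.

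**Figure D4:**
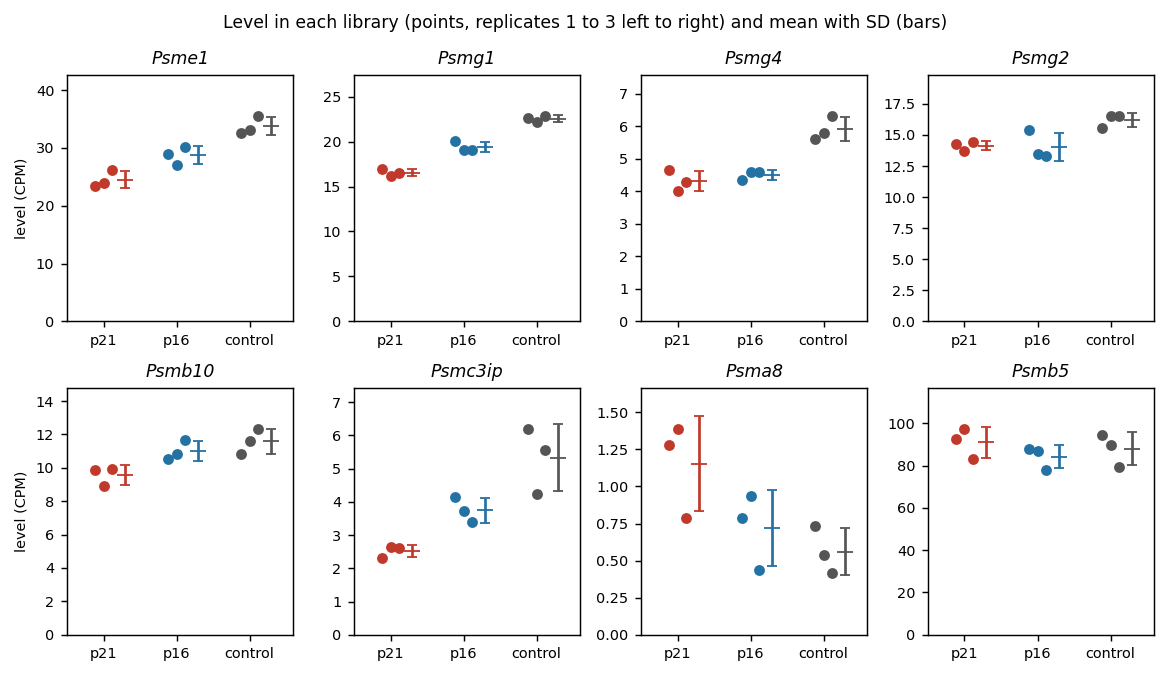
Level in CPM (vertical axis, from 0) of 8 genes in each library, with mean and SD beside the points, for p21, p16 and control cells. Psme1, Psmg1 and Psmc3ip are lowest in p21 cells and highest in control cells with no overlap, while Psmb5 overlaps between all groups.

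Of the 4 activator genes, Psme1 was called in p21 minus control and the others were not. Psme1 and Psme2 encode the alpha and beta subunits of PA28, a heteromeric ring known to be raised by interferon gamma, and Psme3 encodes the nuclear PA28 gamma. Psme1 had 23.4, 23.9 and 26.2 CPM in p21 cells, 29.0, 27.1 and 30.2 CPM in p16 cells, and 32.6, 33.2 and 35.6 CPM in control cells. The 3 groups did not overlap. Its log2 fold change was −0.47 ± 0.063 (SE, adjusted p = 0.000435, edgeR) in p21 minus control, which is 1.38-fold lower, and held in 14 of 14 alternative fits. In p16 minus control it was −0.23 ± 0.063 and did not pass (adjusted p = 0.0546). It passed with the replicate number as a block (adjusted p = 0.0116), whose pairs are uncertain in that comparison, as described below. In p21 minus p16 it was −0.23 ± 0.064 (adjusted p = 0.0417).

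Psme2 had 34.9, 35.4 and 38.6 CPM in p21 cells, 38.0, 33.9 and 40.9 CPM in p16 cells, and 36.1, 38.1 and 42.3 CPM in control cells. These groups overlapped, with a log2 fold change of −0.10 (95% interval −0.28 to 0.09) in p21 minus control. Psme2 shares 54.9% of its runs of 50 bases with other genes, most of them with Psme2b, so the difference between the partners of one ring rests in part on an uncertain count. The ratio of Psme1 to Psme2 counts was 67.0%, 67.5% and 67.7% in p21 cells, 76.3%, 79.9% and 73.8% in p16 cells, and 90.5%, 87.1% and 84.0% in control cells. The 3 groups did not overlap, and each of the 3 comparisons gave a two-sided exact permutation p of 0.1, the smallest that 3 libraries against 3 allow. Psme1 itself shares 11.3% of its runs of 50 bases with other genes. The ratio of Psme1 to Psme3, a gene whose count is not shared in this way, was lower by 0.38 on the log2 scale in p21 minus control. That difference also had an exact permutation p of 0.1. In p16 minus control and in p21 minus p16 the groups overlapped for this ratio, each at an exact permutation p of 0.2. These 6 ratio comparisons were chosen after the values of Psme1 were seen.

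Psme3 had 128, 124 and 121 CPM in p21 cells, 133, 131 and 122 CPM in p16 cells, and 141, 129.6 and 127 CPM in control cells. Psme4, the single PA200 gene, had 143, 150.2 and 141 CPM in p21 cells, 145, 148 and 135 CPM in p16 cells, and 143, 138 and 133 CPM in control cells. Neither was called, at log2 fold changes of −0.09 and 0.07 in p21 minus control. Psmf1, the inhibitor PI31, had 28.7, 28.4 and 28.4 CPM in p21 cells, 29.3, 27.7 and 26.3 CPM in p16 cells, and 30.4, 27.2 and 27.4 CPM in control cells. Psmf1 had a log2 fold change of 0.0095 in p21 minus control, with a 95% interval of −0.12 to 0.14.

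Among the immunoproteasome subunits, which had low levels, 1 of 3 was called lower in p21 cells, against 20.7% of all genes called lower. Psmb10 had 9.87, 8.90 and 9.93 CPM in p21 cells, 10.51, 10.9 and 11.7 CPM in p16 cells, and 10.8, 11.6 and 12.3 CPM in control cells. All p21 libraries were below all others. The log2 fold change in p21 minus control was −0.28 ± 0.081 (SE, adjusted p = 0.0221, edgeR), and the call was lost when control replicate 2 or 3 or p21 replicate 1 or 2 was left out. Psmb8 had 1.16, 0.628 and 1.07 CPM in p21 cells, 1.34, 1.19 and 1.79 CPM in p16 cells, and 0.809, 1.59 and 2.04 CPM in control cells. Control replicate 1 lay among the p21 libraries, and the log2 fold change of −0.64 was not called (adjusted p = 0.18). Without control replicate 1 it was called, at −0.93.

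Psmb9 had 6, 6 and 2 reads in p21 cells, 6, 2 and 14 reads in p16 cells, and 13, 6 and 12 reads in control cells. The groups overlapped, and no difference was detectable at these counts (95% interval of the log2 fold change in p21 minus control, −2.46 to 0.50). Part of its exons, 15.7%, lies within Tap1.

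Each of these genes was set against the constitutive gene whose product it replaces. Per exon length, Psmb8 was 0.690%, 0.356% and 0.711% of Psmb5 in p21 cells, 0.845%, 0.755% and 1.26% in p16 cells, and 0.472%, 0.978% and 1.41% in control cells. Psmb9 was 0.0195% to 0.0471% of Psmb6 in p21 cells, 0.0160% to 0.118% in p16 cells and 0.0413% to 0.0908% in control cells. Psmb10 was 6.12%, 5.50% and 6.69% of Psmb7 in p21 cells, 6.72%, 7.08% and 7.98% in p16 cells, and 6.49%, 7.97% and 9.03% in control cells. The p21 libraries did not overlap with p16 libraries for the pairs Psmb8 with Psmb5 and Psmb10 with Psmb7, with differences of −0.73 and −0.25 in mean log2 ratio. Both gave an exact permutation p of 0.1, the smallest the design allows. In p21 minus control the differences were −0.63 for Psmb8 (exact two-sided p = 0.4), −0.87 for Psmb9 (p = 0.3) and −0.35 for Psmb10 (p = 0.2), and over the 9 ratio comparisons the adjusted p-values ran from 0.45 to 1.

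**Figure D5:**
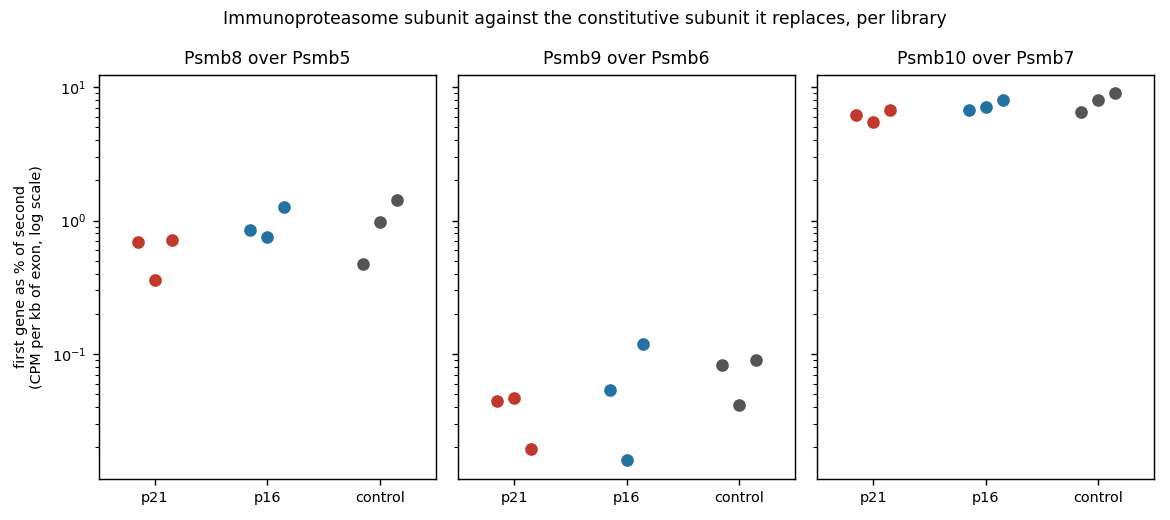
Level of each immunoproteasome gene as a percentage of the constitutive gene it replaces, per exon length (log axis), one point per library, for p21, p16 and control cells. Psmb10 lies between 5.50% and 9.03% of Psmb7, Psmb8 at or below 1.41% of Psmb5 and Psmb9 at or below 0.118% of Psmb6.

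Leukocytes express the immunoproteasome, so their markers are given beside these values. The 17 macrophage and leukocyte markers in the table summed to 30.3 to 55.9 CPM in p21 cells, 12.8 to 18.6 CPM in p16 cells and 15.2 to 18.3 CPM in control cells. Lyz2, the lysozyme of macrophages, averaged 17.3 ± 5.53 CPM in p21 cells, 4.11 ± 1.01 in p16 cells and 3.88 ± 0.757 in control cells. Markers at 0 were Aif1, Cd52, Fcer1g and Spi1 in p16 replicate 1 and Aif1 in p21 replicate 3. These markers were higher in p21 cells, where Psmb10 was lower, and their part in the result was not tested. In bulk RNA, fewer cells of a type and less RNA per cell cannot be told apart. The 12 lymphocyte markers summed to at most 0.300 CPM in any library.

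Interferon response genes were called in both directions in p21 cells. Of 16 tested interferon response genes, 2 rose and 2 fell in p21 cells, 1 rose and 0 fell in p16 cells. That is 25.0% against 39.9% of all genes in p21 minus control and 6.25% against 7.22% in p16 minus control, and their median log2 fold change was −0.18 in p21 minus control. Irf1, a transcription factor of the interferon gamma pathway, fell (log2 fold change −0.65, adjusted p = 0.018, edgeR), with 8.01, 8.68 and 11.3 CPM in p21 cells, 11.5, 10.1 and 15.1 CPM in p16 cells, and 12.05, 15.2 and 16.7 CPM in control cells. Ifit3 rose (0.93, adjusted p = 0.00888), as did Irgm1 (0.26, adjusted p = 0.0382). The call of Irf1 was lost without control replicate 2 or 3 or p21 replicate 1 or 2, and that of Irgm1 without any of the control replicates or p21 replicate 2 or 3. The 1 gene in p16 cells was also Irgm1, and it was not called when any single p16 or control library was left out. Of 13 genes of peptide loading and MHC class I, 2 rose in p21 cells, B2m (0.24, adjusted p = 0.00257) and Tapbp (0.31, adjusted p = 0.0451), and 0 were called in p16 cells. The share in p21 minus control was 15.4%, against 39.9% of all genes. The call of Tapbp was lost without control replicate 1 or 2 or any p21 replicate. Tap1, the neighbour of Psmb9 and a gene chosen after its values were seen, averaged 8.02 ± 1.22 CPM in p21 cells, 7.62 ± 0.855 in p16 cells and 6.97 ± 0.555 in control cells and was not called (adjusted p = 0.246).

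Psma8, the alpha subunit of testis, had 93, 95 and 45 reads in p21 cells, 48, 64 and 30 reads in p16 cells, and 56, 39 and 30 reads in control cells. In CPM all p21 libraries were above all control libraries, with a log2 fold change of 1.04 ± 0.34 (SE, adjusted p = 0.0365, edgeR), and the call was lost when control replicate 2 or 3 or p21 replicate 1 or 2 was left out. Psme2b had 1.70 ± 0.194 CPM in p21 cells, 1.49 ± 0.387 in p16 cells and 0.822 ± 0.411 in control cells. It shares 69.3% of its runs of 50 bases with other genes, most with Psme2, and its log2 fold change of 1.04 (adjusted p = 0.0374) cannot be told apart from reads of Psme2, whose own log2 fold change was −0.10. The call of Psme2b was kept in 7 of 14 alternative fits and was lost without control replicate 2 or 3 or any p21 replicate.

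Psmc3ip, which takes part in homologous recombination, had the largest log2 fold change in size among the 49 genes in p21 minus control. It had 2.31, 2.63 and 2.63 CPM in p21 cells, 4.15, 3.71 and 3.401 CPM in p16 cells, and 6.19, 4.23 and 5.56 CPM in control cells. The 3 groups did not overlap. Its log2 fold change was −1.08 ± 0.16 (SE, adjusted p = 0.000588, edgeR) in p21 minus control, −0.51 ± 0.15 (adjusted p = 0.0763) in p16 minus control and −0.57 ± 0.16 (adjusted p = 0.0416) in p21 minus p16. Its exons overlap those of Mlx by 29.8%, and reads there cannot be assigned without strand. Of the 8 proliferation markers set beside it, Mki67 averaged 106 ± 11.8 CPM in p21 cells, 176 ± 12.9 in p16 cells and 268 ± 17.9 in control cells.

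Counted over the 49 tested genes, 8 were called in p21 minus control, 2 higher and 6 lower, which is 16.3% against 39.9% of all genes. In the higher direction 19.3% of all genes were called. In p16 minus control 2 were called, both lower (4.08%, against 7.22% of all genes, and 3.57% called higher). In p21 minus p16 3 were called, Psmc3ip, Psme1 and Psmg1, all lower in p21 cells (6.12%, against 12.8% of all genes, with 6.64% lower and 6.19% higher). Leaving out control replicate 1 gave 14 calls in p21 minus control, where 39.1% of all genes were called. Leaving out control replicate 2, control replicate 3, p21 replicate 1 or p21 replicate 2 gave 4, which were Psmc3ip, Psme1, Psmg1 and Psmg4 in each case. In those fits 31.2%, 34.5%, 28.6% and 31.5% of all genes were called, in that order. In p16 minus control 1 member, Psmc3ip, was called without control replicate 2 (2.53% of all genes) and 0 without any other single library (1.5% to 5.9%). In p21 minus p16, 2 were called without p21 replicate 3 (12.1% of all genes), 1 without p16 replicate 3 (6.48%) and 0 without any other single library (4.06% to 6.25%). Groups did not overlap for 49.8% of all genes in p21 minus control, 28.7% in p16 minus control and 36% in p21 minus p16. Both comparisons with control share the same control libraries.

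With the replicate number as a block, 4 members were called in p16 minus control (Psmc3ip, Psme1, Psmg1 and Psmg4, all lower), against 17% of all genes in that fit. The pairs in that comparison are uncertain, since p16 replicate 2 correlated more with control replicate 1 than with control replicate 2. In p21 minus p16 the block gave 4, adding Psmb3 as higher in p21 cells to the 3 above, against 24% of all genes.

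Other genes of the pathway, from lists of partners and regulators, were read in the same fits. NRF1 and NRF2 act as activators of proteasome genes, with small MAF proteins as partners, and of 13 tested genes around them 4 rose and 1 fell in p21 cells (38.5%, against 39.9% of all genes), while 0 were called in p16 cells, against 7.22%. The share in p21 cells is near that of all genes. Nfe2l1 had 456, 434 and 441 CPM in p21 cells, 366, 367 and 381 CPM in p16 cells, and 317, 340 and 343 CPM in control cells. The 3 groups did not overlap. Its log2 fold change was 0.41 ± 0.045 (SE, adjusted p = 0.00013, edgeR) in p21 minus control, 0.16 ± 0.045 (adjusted p = 0.0676) in p16 minus control and 0.26 ± 0.045 (adjusted p = 0.00751) in p21 minus p16. Nfe2l2 averaged 106 ± 6.02 CPM in p21 cells, 101 ± 2.54 in p16 cells and 105 ± 5.11 in control cells and was not called. Mafk rose by 0.59 (adjusted p = 0.00294) and Maff by 0.32 (adjusted p = 0.0143) on the log2 scale in p21 cells. The calls of Nfe2l1, Mafk and Maff in p21 minus control held in 14 of 14 alternative fits. The antioxidant response element core was present in 6 windows of members (13.3%, against 11.5% of all windows). In the same comparison the log2 fold changes were 0.05 for Psmb5, −0.10 for Psmb6, 0.016 for Psmc6, 0.035 for Psmd12, −0.12 for Psmd9 and 0.067 for Psme4. None of these was called, and a link to Nfe2l1 was not tested.

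Of 14 proteasome partners outside the name pattern, 0 rose and 3 fell in p21 cells (21.4%, against 39.9% of all genes). Ubqln4, a shuttle that brings ubiquitin chains to the cap, fell by 0.24 (adjusted p = 0.0119), and Uchl5, a deubiquitinase of the cap, fell by 0.31 (adjusted p = 0.0447). Ubqln4 was not called without p21 replicate 1, and Uchl5 was not called without control replicate 1 or 2 or p21 replicate 1 or 3. Of 14 genes for ubiquitin, its activating enzymes and the VCP segregase, 3 rose and 1 fell in p21 cells (28.6%, against 39.9% of all genes). Ubxn4 rose by 0.29 and Faf2 by 0.16, and Rps27a, a ubiquitin gene fused to a ribosomal protein, fell by 0.21 on the log2 scale, each in 14 of 14 alternative fits. Uba6, an activating enzyme, was the 1 gene of this list called in p16 cells, where it rose by 0.30 (adjusted p = 0.0189), a call lost without p16 replicate 2. In p16 minus control that is 7.14% of the list, against 7.22% of all genes. Their median log2 fold change was 0.084 in p21 minus control and −0.0090 in p16 minus control.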

How the data were processed

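RNA was measured in 9 libraries made with a TruSeq kit that does not mark the strand, per the labels' protocols. The authors deposited whole-number read counts per gene symbol, not normalised. The submitters' processing notes name the build mm10, featureCounts 1.4.6 from Subread, Bowtie2 2.2.6 and TopHat2 2.0.14. The sources used here do not give the annotation, the strand setting or how reads with several matches were counted. Library totals of 56864342 to 76054820 counts set the depth.

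Counts were tested with edgeR 4.0.16 in R 4.3.3 (filterByExpr, TMM, glmQLFit and glmQLFTest, 1 fit of 3 group means), adjusted by Benjamini-Hochberg with a threshold of 0.05. The script was tested on simulated data for p21 minus control. There 9 of 100 genes with a true log2 fold change of 0.25 in size were recovered, and 80 of 100 at 0.5. Fewer genes were changed in the simulation than were called in the data. The SE was computed from the log2 fold change and the F statistic. Alternatives were DESeq2 1.42.0, DESeq2's size factors, library size alone, no filter, 2 groups only, a replicate block, a term for replicate 3, replicates 1 and 2 only, and each library left out. Ratios used counts with 0.5 added and an exact two-sided permutation test. Exon lengths, overlaps and shared runs of 50 bases came from GENCODE M21, and promoters from RefSeq.

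Members and lists were chosen with earlier results of these data known. Per-library values were set for the catalytic, immunoproteasome and activator genes and, in each other role, the called gene with the largest change or else the most abundant. Among members, the per-library values of Psmb3, Psmg1 and Psmg2 are given beyond this rule. From context lists, up to 3 called genes by lowest adjusted p were named. One gene that met this rule is not reported here.

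Deviations of same-numbered libraries correlated at 0.25, 0.11 and 0.55 for p16 and control and at 0.16, 0.29 and 0.48 for p21 and p16, above the limit of 0.1, so these numbers were taken as pairs, from the data alone. For p21 and control they were 0.18, 0.025 and 0.49. Replicate 2 of p16 correlated more with control replicate 1, at 0.30, than with control replicate 2, so the pairs of p16 and control are uncertain. Unless a block is named, p-values and counts come from the fit without it, and the permutation tests did not use pairs. The block raised the share of all genes called from 7.22% to 17% in p16 minus control. In p21 minus p16 it rose from 12.8% to 24%. Counts over the context lists were not repeated with the block. Chi-square per degree of freedom between replicates was at least 10.4, so none was merged.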

Additional observations from a re-analysis of the deposited data

How the results depend on the processing

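Under the alternatives to the 9-library edgeR fit, members called in p21 minus control numbered 5 with replicates 1 and 2 only, and 4 to 14 with 1 library left out. Among the 31 core and cap subunits, calls in p21 minus control numbered 2 with the replicate block (Psmb3 and Psmd8), 3 with a term for replicate 3 (with Psma2) and 0 to 4 with 1 library left out. The replicate block gave 11 members in that comparison, where same-numbered libraries were not all correlated above the limit and p21 replicate 2 correlated best with control replicate 1. In the other comparisons the block changed no call of a member beyond those given with it above. The count of core and cap subunits under these alternatives was added after the data were seen. Members called in p16 minus control numbered 0 with no filter, with 2 groups only and with replicates 1 and 2 only, 4 with DESeq2 and with the replicate block, 5 with the term for replicate 3, which also called 1 core subunit (Psmb6), and 0 to 1 with 1 library left out. In p21 minus p16 there were 6 members with the term for replicate 3, of which 2 were core or cap subunits (Psmb3 and Psmd8), 1 core subunit (Psmb3) among 4 members with the replicate block, 1 member with replicates 1 and 2 only and 0 to 2 with 1 library left out. Calls over all genes with the term for replicate 3 were 50.3% in p21 minus control, 18.2% in p16 minus control and 24.9% in p21 minus p16. Counts of members and of all genes thus grew together with that term. They did not without control replicate 1, where 14 members were called in p21 minus control. The share of all genes there was 39.1%, against 39.9% in the 9-library fit. Scaling by library size alone gave summed log2 differences of −0.18 for PA28 and −0.32 for the core chaperones in p21 minus control, the same direction and larger. Signs that turned belonged to genes that were not called. With replicates 1 and 2 only, log2 fold changes in p16 minus control were −0.0082 for Psmb7 and 0.083 for Psmb8. With 1 library left out they ran from −0.019 to 0.11 for Psmb5 in p21 minus control, and in p16 minus control from −0.034 to 0.11 for Psmb7, −0.33 to 0.27 for Psmb8, −1.14 to 0.13 for Psmb9, −0.11 to 0.029 for Psme2 and −0.068 to 0.0043 for Psme3. The cause of these shifts was not tested. The low counts of Psmb8, Psmb9, Psmb11, Psma8 and Psme2b limit what can be said of them.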
